A study of Mus musculus with 12 samples.

Results

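The histone genes described here are the 73 rows of the expression matrix whose symbols begin with Hist1h to Hist4h, H2af, H3f3 or H1f, out of 13886 rows in all. Of these, 63 carry the names of replication-dependent histones and 9 the names of variant histones, and 1 is an antisense transcript of H3f3a. They were followed over 6000 cells sorted from mouse lymph nodes, each with an annotated state, a cell cycle phase and a mouse of origin in the deposited files. All 3 mice had received NP-KLH, given with Sigma Adjuvant System, as a priming immunization and later tamoxifen by gavage, and the draining lymph nodes were taken 5 days after the gavage, on day 16 of the primary response. Live IgD-negative, eYFP-positive B cells and plasma cells (PC) were sorted, tagged per mouse with barcoded CD45 antibodies, and captured for 5′ single-cell RNA sequencing with PC and non-PC in separate wells. The sources used here name neither the strain, nor the alleles that carry eYFP, nor a Cre line, and no group without the immunization or the tamoxifen is part of the series. The 12 libraries fall into 4 Non_PC_mRNA, 1 Non_PC_BCR, 1 Non_PC_HTO, 4 PC_mRNA, 1 PC_BCR and 1 PC_HTO. The comparisons here lie within the pooled matrix, between 6 annotated states: DZ with 3040 cells, LZ with 2213, preMem with 396, LZtoDZ with 165, PC with 137 and prePC with 49. DZ and LZ are the usual short names of the dark and light zones of the germinal centre, where B cells divide and are selected.

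Histones are the proteins around which DNA is wound, and H2A, H2B, H3 and H4 form the core of the particle while H1 binds the DNA between particles. Replication-dependent histone genes lie in clusters, have no introns, and are transcribed as the genome is copied. Their messages usually end in a stem-loop rather than a poly(A) tail, and the stem-loop binding protein that holds it governs their stability. Variant histones, such as H2A.Z from H2afz and the replacement H3 from H3f3a and H3f3b, are encoded by separate genes with polyadenylated messages that are made outside replication as well. H2afx is known to give messages of both kinds. The labels describe the RNA here as poly(A) RNA, so the values for replication-dependent genes cover the part of their messages that the capture reached. Germinal centre B cells divide fast, whereas plasma cells leave the cell cycle as they mature.

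The start regions of 4 genes are printed because the results turn on them: Hist1h1b and Hist1h2ae are the replication-dependent genes with the most unique molecular identifiers (UMIs), H2afz moved with phase and with state, and H3f3a did not pass the test between phases. Each sequence is the 180 bases before the annotated start in RefSeq on build GRCm38.p6, read 5′ to 3′ on the strand of the gene. Capitals mark the letters ATTTGCAT, CCAAT and TATAAA, searched on both strands. They lie at chr13:21780626-21780805 (minus strand) for Hist1h1b, chr13:23571221-23571400 (minus strand) for Hist1h2ae, chr3:137864307-137864486 (plus strand) for H2afz and chr1:180813606-180813785 (minus strand) for H3f3a.
Hist1h1b: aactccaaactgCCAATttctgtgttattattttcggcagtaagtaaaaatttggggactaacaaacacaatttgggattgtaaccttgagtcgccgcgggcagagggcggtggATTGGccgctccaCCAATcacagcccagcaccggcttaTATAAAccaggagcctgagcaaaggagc
Hist1h2ae: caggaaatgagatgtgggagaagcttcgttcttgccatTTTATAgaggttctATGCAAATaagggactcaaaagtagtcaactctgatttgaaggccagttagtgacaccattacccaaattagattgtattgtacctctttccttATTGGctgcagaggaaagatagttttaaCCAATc
H2afz: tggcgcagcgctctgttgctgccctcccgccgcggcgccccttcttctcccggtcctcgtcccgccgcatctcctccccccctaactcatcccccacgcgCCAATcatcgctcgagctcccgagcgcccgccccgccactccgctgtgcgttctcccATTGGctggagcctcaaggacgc
H3f3a: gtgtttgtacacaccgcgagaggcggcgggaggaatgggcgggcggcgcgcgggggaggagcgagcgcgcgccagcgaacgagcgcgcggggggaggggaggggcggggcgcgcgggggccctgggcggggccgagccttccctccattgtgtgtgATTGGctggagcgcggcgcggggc
Hist1h1b held CCAAT letters and TATAAA, the Hist1h2ae stretch held CCAAT letters, TATAAA and ATTTGCAT, and H2afz and H3f3a held CCAAT letters alone. The Hist1h2ae stretch is shared with the H2B gene Hist1h2bg on the plus strand, annotated to start at chr13:23571396, against chr13:23571220 for Hist1h2ae. Its TATAAA and ATTTGCAT letters read on the plus strand and lie nearer to the start of Hist1h2bg. They cannot be assigned to Hist1h2ae alone. Promoter windows of 300 bases were listed for 56 replication-dependent genes (57 windows, since Hist1h2be has 2) and 8 variants. Hist1h2ap and Hist1h2ao were listed with the same window, chr13:21810117-21810416 on the plus strand, which is counted for each. GENCODE places Hist1h2ap elsewhere, at chr13:21833026-21833507 on the minus strand. ATTTGCAT, the octamer bound by Oct factors and known from H2B promoters, stood in 12 of the 57 windows (21.1%), against 1.74% of 32851 windows of all genes. It was in 6 of 14 H2B and 6 of 16 H2A windows and in no H1, H3 or H4 window, while among variants only the H3f3b window had it. Windows of H2A and H2B genes that start head to head overlap, as in Hist1h2ae with Hist1h2bg and Hist1h2ah with Hist1h2bk. A single site can thus count in both classes, and the windows are not independent. CCAAT was in 48 of the 57 windows, against 37.4% of all windows, and TATAAA in 32, against 13.6%.

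Of the 62 replication-dependent genes matched to the GENCODE annotation, 50 lie on chromosome 13, 9 on chromosome 3, 2 on chromosome 11 and 1 on chromosome 6. The stem-loop letters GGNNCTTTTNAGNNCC were found in transcripts of 43 of these 62 genes and of 1 of the 9 variants, H2afx, against 0.161% of 55341 annotated genes. The 22 replication-dependent genes whose annotated transcript runs more than 100 bases past the stem-loop had a median of 641 UMIs over all cells. The 21 genes with a shorter tail had a median of 119 UMIs. Annotated tails of 151 and 155 bases did not go with like counts in Hist1h2ae, at 30246 UMIs, and Hist1h2bg, which starts 176 bases away on the other strand, at 144. Hist2h2ac and Hist2h2be, another pair that starts head to head, had 6890 and 174 UMIs. The copies resemble each other: a median of 49.4% of the 50-base windows of a replication-dependent gene also occurred in another gene, against 2.24% for variants, so counts for single copies such as Hist1h2ap (93.1%) are uncertain. Over the first 200 windows, at the 5′ end, the replication-dependent median was 55.25%, with 48.0% for Hist1h4d and 59.5% for Hist1h4i, whose counts are uncertain too. By contrast, 7 replication-dependent genes shared none of these first windows. Hist1h1b shared no window. The row Hist2h2bb.1 had no match, Hist1h2al is annotated as a processed pseudogene, and the antisense row H3f3aos had 37 UMIs and overlaps the start of H3f3a.

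The replication-dependent genes together had 167345 UMIs and the variants 512362, out of 51973226 UMIs in the matrix. Among variants H3f3a had 203247 UMIs, H2afz 124158 and H3f3b 88860, and among replication-dependent genes Hist1h1b had 41937, Hist1h2ae 30246 and Hist1h1e, a linker histone like Hist1h1b, 20051. 23 of the 73 histone rows had fewer than 100 UMIs. After the filter on low counts, 42 histone genes (33 replication-dependent, 9 variant) of 8473 genes were tested between states, and 47 (38 and 9) of 9374 genes within phases.

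The states carried their defining markers. On the CPM scale (the UMIs of a gene relative to all UMIs), Cd83 was at 476 in LZ and 101 in DZ, Cxcr4 at 85.6 in DZ and 36.2 in LZ, Cd38 at 165 in preMem and at most 8.10 in DZ, LZ and LZtoDZ, and Sdc1 at 84.2 in PC and at most 1.78 elsewhere. Median UMIs per cell ran from 4119 in preMem to 24018 in PC. Of 19 markers of T, myeloid, stromal and erythroid cells, the 12 to be found in the matrix summed to at most 22.6 CPM in any mouse and state apart from prePC, where they reached 350.5 CPM in mouse 1, mainly from Lyz2. Barcodes fall into 2 series that share no barcode: the first holds 5878 cells and the second 122, of which 117 are PC, out of 137 PC in all. Because PC are nearly all in the second series, PC against GC is also given without it, and PC against LZ in G1 could not be run that way, so that PC state and barcode series cannot be told apart in the PC results.

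Replication-dependent histones were lowest in G1 and highest in G2M in both zones. In DZ cells their summed level was 1975 ± 30.4 CPM in G1, 3456 ± 57.0 in S and 4831 ± 409 in G2M (mean ± SD, n = 3 mice, over all UMIs). In LZ cells the sums were 2164 ± 81.8, 3500 ± 265 and 5603 ± 248 CPM. The 3 mice of each phase did not overlap with those of the other phases in either zone. Variant histones rose by a smaller fold: in DZ from 8297 ± 65.2 CPM in G1 to 10409 ± 94.6 in S and 14310 ± 329 in G2M, or 1.72 ± 0.05-fold from G1 to G2M against 2.44 ± 0.18-fold for the replication-dependent genes. Accordingly the number of variant UMIs per replication-dependent UMI in DZ was 4.20 ± 0.09 in G1, 3.01 ± 0.03 in S and 2.97 ± 0.19 in G2M. The summed replication-dependent level was highest in G2M rather than S.

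S cells spread widely around their mean. In S-phase DZ cells the median cell had 1813 CPM of replication-dependent histones and the upper quartile was 4420 CPM, while in G1 the median was 1928 CPM and the upper quartile 2593 CPM. In G2M the median was 3562 CPM, the lower quartile 1509 and the upper quartile 7064. Thus the median S cell lay below the median G1 cell, while the upper quartile of S cells lay above that of G1 cells. Variant histones had medians of 8145 CPM in G1, 9684 in S and 13990 in G2M. These are quantiles over cells of all 3 mice and carry no test.

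**Figure D1:**
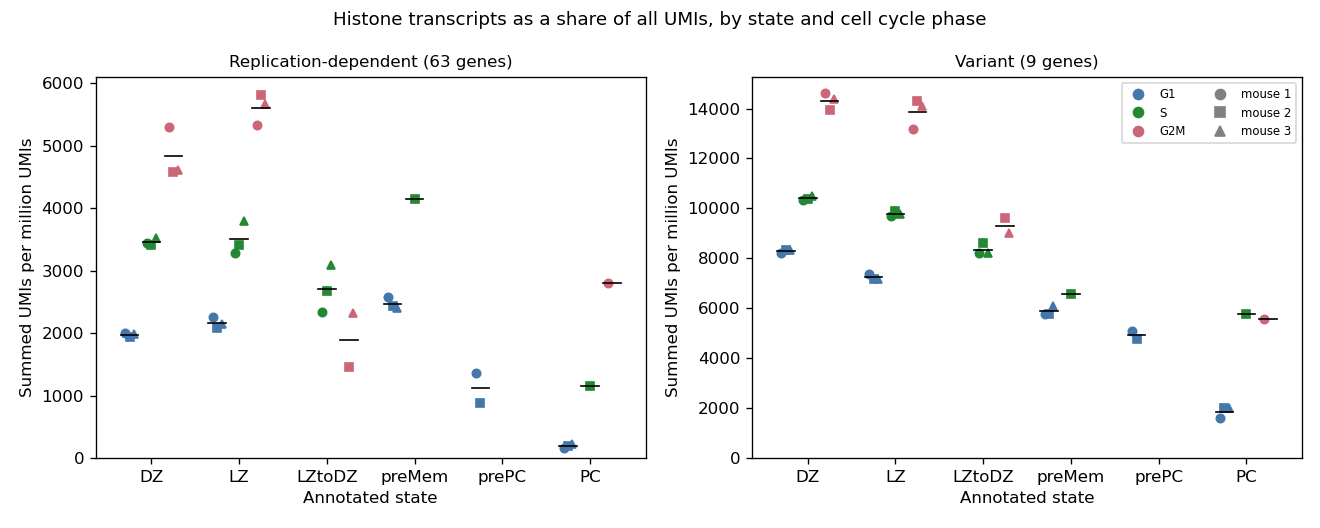
Summed UMIs of replication-dependent (left) and variant (right) histone genes in CPM, by annotated state (x axis), phase (colour) and mouse (symbol), with the mean as a bar, for sums of at least 10 cells. In DZ and LZ the replication-dependent sums of all 3 mice climb from G1 to S to G2M, and the PC sums in G1, with a mean of 193 CPM, lie lowest.

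From G1 to S in DZ, 25 of the 47 tested histone genes rose and 0 fell, where 16.9% of all 9374 genes rose and 12.2% fell (edgeR's quasi-likelihood test, adjusted p under 0.05, as in all comparisons that follow). They were 19 of 38 replication-dependent genes and 6 of 9 variants, and the median log2 change was 0.61 for the former, 0.45 for the latter and -0.02 for all genes. By class, 5 of 5 H1 genes, 6 of 10 H2A, 3 of 10 H2B, 2 of 6 H3 and 3 of 7 H4 genes rose. Of the 2 linker histone variants tested, H1fx rose and H1f0 did not pass.

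The H2A gene Hist1h2ap showed the largest rise in DZ, from 4.39, 5.03 and 6.50 TMM-scaled CPM in G1 to 52.0, 52.1 and 63.2 in S for mice 1, 2 and 3, a log2 change of 3.35 ± 0.18 (SE; adjusted p = 4.02e-13). All 3 S values lay above all 3 G1 values. The H4 gene Hist2h4 rose by 2.85 ± 0.37 on the log2 scale (adjusted p = 1.14e-06), from 3.29, 1.55 and 2.05 CPM to 11.4, 16.0 and 20.4, and the H3 gene Hist1h3a by 2.08 ± 0.43 (adjusted p = 0.000679). Both are low genes, with 16 and 12 UMIs in the G1 cells, and neither overlapped between phases. Among the abundant genes, Hist1h1b went from 392, 391 and 389 CPM to 846, 890 and 867, with a log2 change of 1.15 ± 0.20 (adjusted p = 9.99e-05). Hist1h2ae went from 153, 156 and 156 CPM to 647, 544 and 588 (1.93 ± 0.19, adjusted p = 1.09e-08). In both genes the G1 values of the mice were within a few CPM of each other.

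Among variants, H2afz, which encodes H2A.Z, rose from 954, 1075 and 995 CPM in G1 to 2497, 2644 and 2650 in S of DZ (log2 change 1.37 ± 0.06, adjusted p = 3.65e-15). H2afx, whose product marks DNA breaks once phosphorylated, rose from 282, 277 and 278 CPM to 550, 515 and 576 (0.97 ± 0.19, adjusted p = 0.000387). The groups did not overlap for either gene. The replacement H3 genes differed from each other: H3f3b rose from 1295, 1324 and 1266 CPM to 1552, 1537 and 1627 (0.28 ± 0.07, adjusted p = 0.00284). H3f3a was at 4011, 3905 and 4051 CPM in G1 and 3878, 3917 and 3965 in S, with overlapping groups and a log2 change of -0.03 ± 0.10 (adjusted p = 0.884).

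From G1 to G2M in DZ the rise covered nearly all tested histone genes: 38 of 47 rose and 0 fell (all genes: 15.9% higher, 14.0% lower). These were 32 of 38 replication-dependent genes and 6 of 9 variants, with a median log2 change of 1.08 for the replication-dependent genes, 0.78 for the variants and -0.04 for all genes. Each class of replication-dependent genes took part, with 5 of 5 H1, 9 of 10 H2A, 7 of 10 H2B, 5 of 6 H3 and 6 of 7 H4 genes. Hist1h2ap again led, at 99.2, 88.4 and 87.4 CPM in G2M (4.05 ± 0.17, adjusted p = 9.48e-16), followed by Hist2h4 at 2.80 ± 0.37 and Hist1h2ae at 2.76 ± 0.19 on the log2 scale. Hist1h2ae reached 1219, 980 and 960 CPM in G2M, and Hist1h1b 1117, 1059 and 998. Hist1h1e and Hist1h4d changed less. Hist1h1e went from 245, 238 and 241 CPM to 547, 472 and 480 (1.05 ± 0.14, adjusted p = 2.1e-06). Hist1h4d, the H4 gene with the most UMIs, went from 209, 199 and 217 to 312, 248 and 274 (0.41 ± 0.11, adjusted p = 0.00622). None of these genes overlapped between G1 and G2M.

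The H2A variants took the larger part of the variant rise in G2M. H2afx reached 1876, 1737 and 1923 CPM (log2 change 2.73 ± 0.20, adjusted p = 5.63e-11), H2afz 3725, 3566 and 3685 (1.86 ± 0.06, adjusted p = 6.42e-18) and H2afv, the second H2A.Z gene, 990, 869 and 886 after 370, 369 and 355 in G1 (1.33 ± 0.11, adjusted p = 3.22e-10). All 3 were well clear of their G1 values. H2afy, which encodes macroH2A, rose by 0.78 ± 0.09 and the linker histone variant H1fx by 1.10 ± 0.14 on the log2 scale. H3f3b rose by 0.68 ± 0.07 (adjusted p = 1.57e-08). Of the 9 variants 3 did not pass: H3f3a at 4361, 4171 and 4299 CPM (0.10 ± 0.10, adjusted p = 0.498), H2afj at 216, 212 and 205 against 211, 212 and 197 in G1 (0.03 ± 0.09, adjusted p = 0.844), and the linker histone H1f0, associated with resting cells, at -0.14 ± 0.20 (adjusted p = 0.641).

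Summed by class in DZ, the H2A variants went from 2201 ± 80.6 CPM in G1 to 7305 ± 184 in G2M, and the H3 variants from 5948 ± 63.4 to 6823 ± 149 (n = 3). Among replication-dependent classes H2A had the steepest change, from 424 ± 20.6 to 1718 ± 200 CPM, while H1 went from 878 ± 1.38 to 2040 ± 120, H2B from 172 ± 6.98 to 320 ± 27.6, H3 from 215 ± 12.3 to 315 ± 36.0 and H4 from 286 ± 11.7 to 438 ± 44.5. Between S and G2M in DZ, 26 of 47 histone genes rose and 0 fell (all genes: 9.87% higher, 11.1% lower). H2afx led with a log2 change of 1.75 ± 0.20 (adjusted p = 2.07e-07), then Hist1h2ae with 0.83 ± 0.18 (adjusted p = 0.00155) and Hist1h2ac with 0.78 ± 0.15 (adjusted p = 0.000433). Without mouse 1, or without mouse 2, the count of rising genes was 17.

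In LZ, Hist1h2ap and Hist2h4 again led the changes from G1. From G1 to S, 21 of 47 histone genes rose and 0 fell (all genes: 14.5% and 10.1%). The leaders were Hist1h2ap (log2 change 3.37 ± 0.19), Hist2h4 (2.28 ± 0.43) and the H4 gene Hist1h4i (2.12 ± 0.22), which went from 8.14, 7.69 and 7.80 CPM to 33, 31.2 and 37.7. Without mouse 3 the count was 13. From G1 to G2M, 35 rose and 0 fell (all genes: 14.0% and 11.7%), with Hist1h2ap at 4.26 ± 0.19, Hist2h4 at 3.67 ± 0.41 and Hist1h4i at 2.81 ± 0.23. From S to G2M, 23 rose and 0 fell (all genes: 4.7% and 4.69%), led by H2afx (1.52 ± 0.20), Hist2h4 (1.39 ± 0.31) and Hist1h2ae (1.16 ± 0.18). That last count was 10 without mouse 2 and 14 without mouse 3. Phases are the authors' calls, and the sources used here do not name the genes behind them. With phases rebuilt from lists that hold no histone gene, no count of the 6 phase comparisons moved by more than 1.5 times. In these 6 comparisons 0 histone genes fell at an unadjusted p under 0.05, and the DESeq2 Wald test called 1 lower, in S against G1 in DZ.

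**Figure D2:**
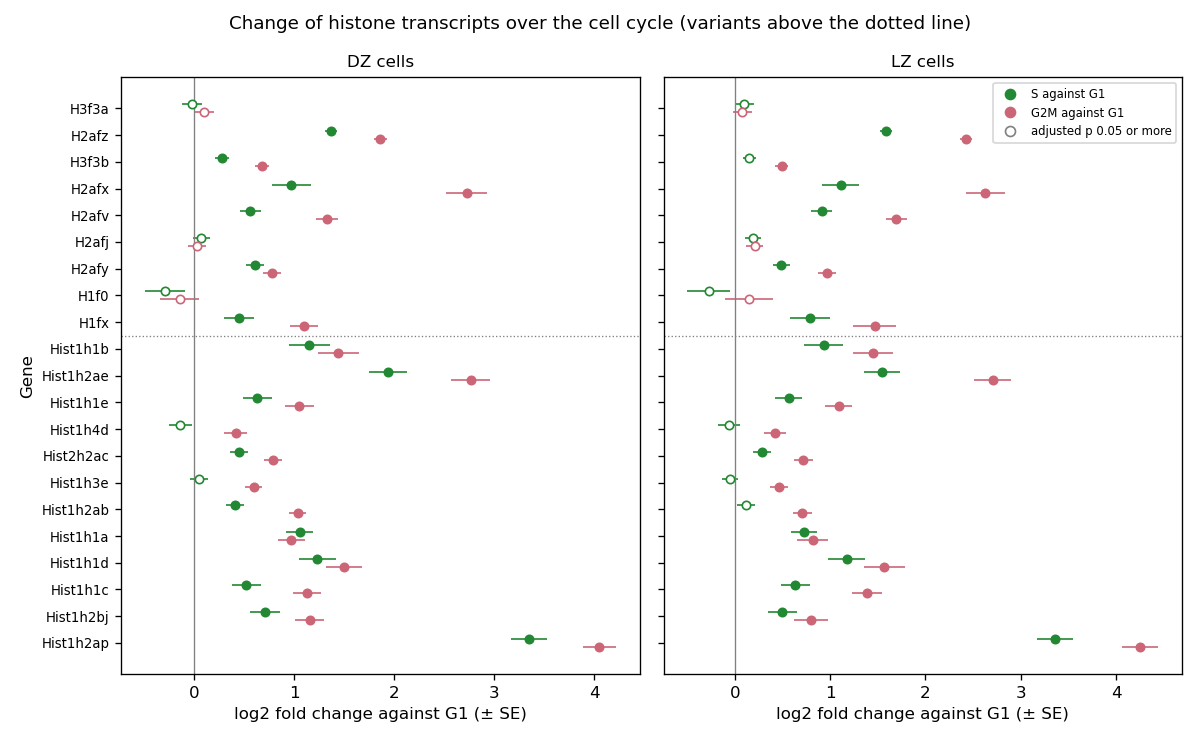
Log2 fold change (x axis, with its SE) of the 9 variants and the 12 replication-dependent genes with the most UMIs (y axis), for S against G1 and G2M against G1, in DZ (left) and LZ (right); open points have an adjusted p of 0.05 or more. H2afx and Hist1h2ae move further in G2M than in S, and H3f3a has open points in both zones, at 0.10 in G2M of DZ.

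H2afz was the gene whose G2M change differed between zones. In LZ it rose from 643, 714 and 665 CPM in G1 to 1994, 2064 and 2000 in S and 3572, 3643 and 3647 in G2M, so that its G1 to G2M change was 2.43 ± 0.06 on the log2 scale, against 1.86 ± 0.06 in DZ. The difference of the changes was -0.57 ± 0.08 (adjusted p = 0.00226), and it was the only such call among 47 histone genes, where 0.064% of all genes were called lower and 0.064% higher. At an unadjusted p under 0.05 there were 6 of the 47 histone genes and 927 of all 9374 genes. The DESeq2 Wald test called 3 histone genes. For H2afz the adjusted p was 0.139 without mouse 2 and 0.291 without mouse 3. For the S against G1 change the edgeR test called 0 histone genes as different between zones (all genes: 0.0% higher in DZ and 0.0107% lower). At an unadjusted p under 0.05 there were 4 histone genes and 515 of all 9374 genes. The DESeq2 Wald test called 2 histone genes.

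Between the zones as a whole, 4 of 42 histone genes were higher in DZ and 0 lower (all genes: 8.17% and 11.3%; none lower at an unadjusted p under 0.05 or by the Wald test). H1fx was at 55.2, 61.5 and 54.8 CPM in DZ and 28.0, 25.3 and 23.7 in LZ, a log2 difference of 1.17 ± 0.10 (adjusted p = 3.29e-06). The H2B gene Hist3h2ba, outside the main cluster, was at 13.4, 15.8 and 14.6 against 6.74, 8.20 and 5.02 CPM (1.17 ± 0.19, adjusted p = 0.000496). No mouse of LZ reached the DZ range for either gene. H2afv was at 626, 593 and 592 against 346, 382 and 366 (0.73 ± 0.15, adjusted p = 0.00256), and Hist1h4i at 37.0, 36.7 and 42.2 against 22.2, 25.5 and 26.9 (0.63 ± 0.11, adjusted p = 0.000566). H2afz (0.59 ± 0.22, adjusted p = 0.0723) and H2afx (0.65 ± 0.24, adjusted p = 0.0759) did not pass. Zones differ in phase: G2M held 1012 of 3040 DZ cells and 243 of 2213 LZ cells, and G1 held 1078 and 1235.

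Within G1, 3 histone genes, all of them variants, were higher in DZ and 2 lower (all genes: 6.39% and 5.98%). They were H1fx at 29.6, 46.8 and 37.6 against 20.6, 18.1 and 13 CPM (1.22 ± 0.19), H2afv at 370, 369 and 355 against 213, 227 and 220 (0.73 ± 0.11) and H2afz at 0.58 ± 0.06 (adjusted p = 2.48e-07). The replication-dependent Hist1h2ab (-0.31 ± 0.09, adjusted p = 0.0272) and Hist1h3e (-0.27 ± 0.09, adjusted p = 0.0443) were lower in DZ. Both of these calls, and no other of the 5, were lost without mouse 2, without mouse 3, without the mouse block and with rebuilt phases, which left a count of 3. Within S, 5 genes were higher and 0 lower (all genes: 4.81% and 4.18%; 2 at an unadjusted p under 0.05 and 0 by the Wald test): Hist3h2ba (1.03 ± 0.30), H1fx (0.87 ± 0.16), Hist1h4i (0.48 ± 0.15), H2afv (0.38 ± 0.11) and H2afz (0.36 ± 0.06). The count was 3 without mouse 1, 3 without mouse 2 and 0 without mouse 3. Within G2M, H1fx (0.85 ± 0.17) and H2afv (0.36 ± 0.11) were higher and none lower (all genes: 5.02% and 3.53%; 6 at an unadjusted p under 0.05 and 1 by the Wald test), while H2afz was at 0.02 ± 0.06 (adjusted p = 0.926). In G2M 1 gene was called without mouse 1 or without mouse 2 and with DESeq2 size factors, 4 by the Wald test in both directions together, 4 without the second barcode series and 10 without immunoglobulin genes.

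In CPM, more histone genes were lower than higher in LZtoDZ cells compared with LZ cells, and H2afz was among the higher ones. Against LZ, 4 of 42 histone genes were higher and 17 lower (all genes: 22.5% and 24.3%): 13 replication-dependent and 4 variant genes fell, and 1 and 3 rose. The median log2 difference was -0.49 for replication-dependent genes, -0.67 for variants and -0.08 for all genes. H2afz rose to 2982, 3350 and 3078 CPM from 1548, 1769 and 1584 (0.94 ± 0.22, adjusted p = 0.00244). Hist1h4i (0.58 ± 0.17, adjusted p = 0.0101, mice overlapping), H2afj and H2afy (0.32 each, adjusted p = 0.0243 and 0.0384) were higher as well. H3f3a fell to 1997, 1957 and 1960 CPM from 3623, 3643 and 3590 (-0.88 ± 0.07, adjusted p = 3.22e-07). H2afz and H3f3a, each with 3 mice clear of the other state, thus moved in opposite directions.

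The largest falls in LZtoDZ were in Hist1h2bf (-1.44 ± 0.55, adjusted p = 0.0432, with 8 UMIs in LZtoDZ), the H2A gene Hist1h2af (-1.08 ± 0.38, adjusted p = 0.029) and Hist1h4d. Hist1h4d was at 125, 87.3 and 112 CPM against 226, 211 and 225 in LZ (-1.05 ± 0.14, adjusted p = 2.45e-05). Within S, where the LZtoDZ cells mostly lie, 2 genes were higher and 16 lower (all genes: 17.1% and 15.6%). H2afz was at 3224, 3507 and 3310 CPM against 1994, 2064 and 2000 (0.73 ± 0.06, adjusted p = 9.82e-10), and H2afj at 0.37 ± 0.09. The largest falls in S were in Hist1h2ai (-1.36 ± 0.52), Hist1h2ac (-0.98 ± 0.28) and H3f3a (-0.91 ± 0.10). The count of 18 in S was 8 without mouse 2 and 9 without mouse 3.

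CPM and UMIs per cell gave different orders in S for LZtoDZ, whose cells had more UMIs of all genes. No doublet caller was run here, and the sources used do not say how doublets were treated, so their part in the UMIs per cell was not tested. In S, the mean over mice was 21101 UMIs of all genes per LZtoDZ cell and 8361 per LZ cell. Replication-dependent histones came to 2700 ± 382 CPM in LZtoDZ and 3500 ± 265 in LZ, but to 57.2 ± 10.9 and 29.3 ± 4.0 UMIs per cell. Hist1h1b had 17.1 ± 4.48 UMIs per LZtoDZ cell and 8.16 ± 1.09 per LZ cell. For H2afz both measures were higher in LZtoDZ, with 73.9 ± 6.64 against 18.6 ± 1.37 UMIs per cell. H3f3a had 45.3 ± 2.39 UMIs per LZtoDZ cell and 35.5 ± 2.63 per LZ cell. In G2M only 2 mice had enough LZtoDZ cells. Their replication-dependent UMIs per cell were 34.4 and 61.3, against 53.8 to 61.5 in the 3 LZ mice.

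**Figure D3:**
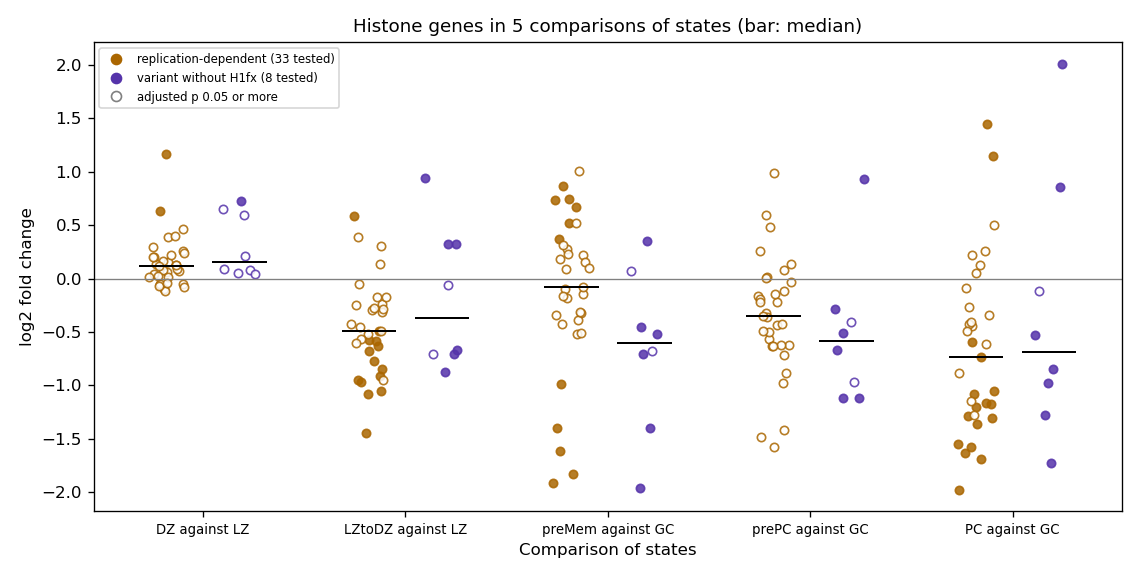
Log2 fold change (y axis) of each tested histone gene in 5 comparisons of states (x axis), replication-dependent genes beside variants, H1fx left out, with the median as a bar and open points for an adjusted p of 0.05 or more. In LZtoDZ against LZ the replication-dependent median is -0.49, and in PC against GC it is -0.74.

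preMem cells, 370 of 396 of them in G1, were compared with the germinal centre (GC) states, taken as the mean of DZ, LZ and LZtoDZ on the log scale. Here 7 of 42 histone genes were higher and 11 lower (all genes: 25.4% and 21.5%). H2afz fell most, to 600, 653 and 551 CPM from 2309, 2535 and 2385 (-1.96 ± 0.20, adjusted p = 1.45e-06), and H2afx fell by 1.40 on the log2 scale, to 231, 183 and 257 CPM. Hist1h2ap (-1.91 ± 0.40) and Hist1h3g (-1.83 ± 0.37, 5 UMIs in preMem) followed. Higher were Hist1h3c at 55.6, 66.9 and 66.2 CPM against 37.5, 34.0 and 38.6 (0.86 ± 0.17, adjusted p = 0.000666), Hist1h2bb (0.74 ± 0.22, adjusted p = 0.0114) and Hist1h4d at 297, 281 and 280 against 192, 167 and 184 (0.74 ± 0.11, adjusted p = 6.44e-05). In all, 6 replication-dependent genes rose and 5 fell, while 6 variants fell and 1, H2afj, rose.

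Within G1, preMem was compared with LZ. Of 47 histone genes 2 were higher and 3 lower (all genes: 10.2% and 9.33%). H2afj was at 285, 238 and 281 CPM against 184, 185 and 183 (0.54 ± 0.09, adjusted p = 7.76e-05), and Hist1h4d at 296, 281 and 290 against 234, 201 and 226 (0.39 ± 0.12, adjusted p = 0.0192). H1f0 fell to 27.3, 26.1 and 49.2 CPM from 72.2, 75.1 and 75.4 (-1.08 ± 0.36, adjusted p = 0.0347), H3f3b fell by 0.36 and H2afz by 0.26 on the log2 scale, from 643, 714 and 665 CPM to 551, 581 and 555. In each of these 5 genes, picked by the test on the same values, the preMem mice lay outside the LZ range. The comparison with GC above differs from this one in the reference states, the phases and the set of genes tested. Without mouse 1 the count was 3.

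The number of replication-dependent UMIs per G1 cell was close between DZ, LZ and preMem. It was 11.9 ± 0.31 in DZ, 12.0 ± 0.33 in LZ and 11.1 ± 0.23 in preMem (n = 3), and 13.1 and 9.21 in the 2 mice with enough prePC, although the UMIs of all genes per G1 cell were 6043, 5531, 4515 and 10091 in these 4 states. The 17 LZtoDZ cells in G1, taken over all mice, had 14.3. Among single genes, Hist1h1b had 2.66 ± 0.10 UMIs per DZ cell, 2.81 ± 0.12 per LZ cell and 2.58 ± 0.14 per preMem cell, and Hist1h2ae 1.05, 1.05 and 1.02. Variant histones differed more, with 50.1 ± 1.93, 40.0 ± 0.61 and 26.6 ± 1.14 UMIs per cell. H2afz had 6.87 ± 0.65, 4.10 ± 0.28 and 2.64 ± 0.12. PC in G1, which are mostly of the second series, had 4.12 ± 0.29 replication-dependent UMIs per cell out of 21526 UMIs of all genes. Within PC in G1, the 7 cells of the first series had 8.0 UMIs per cell and 700 CPM, and the 84 of the second series 3.74 UMIs per cell and 167 CPM. The part of free RNA in droplets in these G1 levels was not tested.

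**Figure D4:**
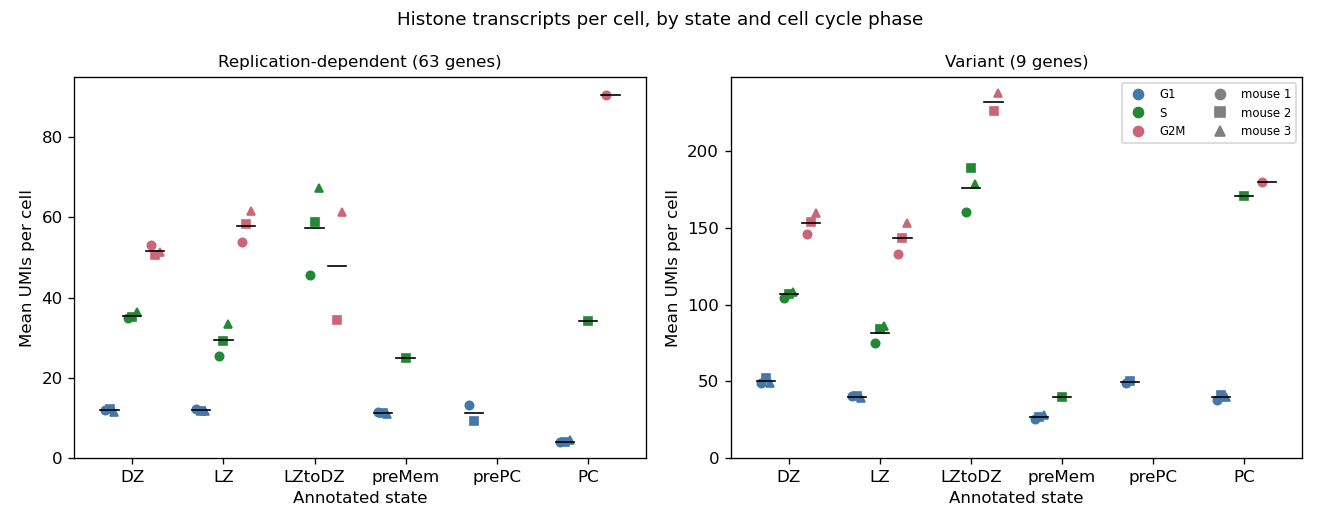
Mean UMIs per cell of replication-dependent (left) and variant (right) histone genes, by annotated state (x axis), phase (colour) and mouse (symbol), for sums of at least 10 cells. In G1 the replication-dependent means of DZ, LZ and preMem lie between 10.9 and 12.3, while the variant means differ between the same states.

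prePC cells differed from GC in variant histones, with no replication-dependent gene past the test. 1 variant was higher and 6 lower, out of 42 histone genes (all genes: 10.5% and 7.48%). Of the 33 replication-dependent genes 5 had an unadjusted p under 0.05, where 2484 of all 8473 genes had one. The DESeq2 Wald test called 2 replication-dependent genes. H2afj was at 416, 385 and 399 CPM against 220, 214 and 198 in GC (0.93 ± 0.09, adjusted p = 3.4e-06), with no overlap between mice. H2afz was at 1254, 1506 and 513 CPM (-1.12 ± 0.19, adjusted p = 0.000612), H2afx at 313, 330 and 160 (-1.11 ± 0.22, adjusted p = 0.0022) and H3f3a at 2391, 2408 and 2647 against 3156, 3123 and 3137 (-0.28 ± 0.06, adjusted p = 0.00439). H3f3b (-0.67 ± 0.11) and H2afv (-0.51) were lower too. H1fx had 2 UMIs in all prePC cells, all in mouse 2, and was 12.5-fold lower than in GC on the TMM scale (95% interval 3.45 to 103, counting error only). The prePC cells number 17, 22 and 10 per mouse, and mouse 3 gave the lowest H2afz and H2afx values. In G1 were 42 of the 49, and the 6 in G2M came 3 each from mice 1 and 2, with none from mouse 3. The part of phase in these differences was not tested. Without the second barcode series, which holds 2 prePC cells, 12 histone genes were called, 11 of them lower. The share of all genes called in that run is not given here. The 5 added were Hist1h1b (-0.80), Hist1h2ae (-0.81), Hist1h1e (-0.63), Hist2h2ac (-0.59) and H2afy (-0.54).

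In G1, PC had the lowest summed CPM of both classes among the 5 states with such sums, 193 ± 29.1 CPM for replication-dependent genes and 1861 ± 236 CPM for variants. In UMIs per G1 cell the variants did not have this order, with 39.7 ± 1.60 in PC, 40.0 ± 0.61 in LZ and 26.6 ± 1.14 in preMem. Against GC over all phases, 4 of 42 histone genes were higher and 21 lower (all genes: 25.9% and 27.2%). These were 2 replication-dependent genes and 2 variants that rose, and 15 and 6 that fell, with a median log2 difference of -0.74 for replication-dependent genes, -0.85 for variants and -0.09 for all genes. H1f0 was at 347, 250 and 136 CPM against 59.9, 65.4 and 61.9 (2.01 ± 0.23, adjusted p = 1.79e-06), and H2afj at 387, 377 and 380 against 220, 214 and 198 (0.86 ± 0.09, adjusted p = 4.61e-07). The H4 genes Hist4h4, at 51.8, 11.6 and 16.5 against 10.3, 8.59 and 9.38 (1.45 ± 0.33, adjusted p = 0.00163), and Hist1h4i, at 86.4, 50.3 and 86.3 against 27.4, 34.8 and 37.2 (1.15 ± 0.16, adjusted p = 2.05e-05), were also higher. In these 4 genes, picked by the test on the same values, PC mice lay above the GC mice, by the least in Hist4h4.

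Among the falls in PC, H1fx had 0 UMIs in 137 cells and was at least 29.1-fold lower than in GC on the TMM scale, or 55.8-fold on unscaled UMIs, with the floor of 3 UMIs taken over the group. Hist1h2be fell by 1.97 and H2afx by 1.72 on the log2 scale, the latter to 262, 142 and 140 CPM from 597, 637 and 659. H3f3a was at 1467, 1707 and 1427 CPM against 3156, 3123 and 3137 (-0.97 ± 0.06, adjusted p = 2.63e-09), while H3f3b was at -0.12 (adjusted p = 0.398). The linker histones Hist1h1b (-1.36) and Hist1h1a (-1.58) fell as well. Without the second barcode series, only mouse 2 kept at least 10 PC (11 cells), and this lone sum takes its spread from the other groups. Then 0 histone genes were higher and 9 lower, of which 7 were called in the same direction with all cells, among them H3f3a (-0.40) and Hist1h1b (-1.59). None of the 4 higher genes was called: H2afj was at 0.21 (adjusted p = 0.712), Hist1h4i at 0.03 (adjusted p = 0.997) and H1f0, with 6 UMIs in that sum, at -0.77 (adjusted p = 0.719), while Hist4h4 had 0 UMIs there and is given no fold.

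Within G1, PC and LZ cells differed most. Of 47 histone genes 4 were higher and 27 lower (all genes: 22.0% and 24.0%), 20 of the latter replication-dependent and 7 variant. The median log2 difference was -2.32 for replication-dependent genes, or -1.57 with the 5 genes at 0 UMIs in PC set to their bound, against -0.18 for all genes. Hist1h1b was at 9.83, 44.8 and 35.1 CPM in PC and 492, 442 and 454 in LZ (-3.93 ± 0.27). Hist1h1e fell less, to 65.5, 116 and 105 CPM from 268, 272 and 258 (-1.47), and H2afx was at 39.3, 42.1 and 4.39 against 280, 254 and 257 (-3.10). All PC values lay below all LZ values in these 3 genes. On the TMM scale Hist1h2ab, with 2 UMIs in PC, was 48.1-fold lower (95% interval 13.3 to 398), and H1fx, Hist1h2ak and Hist1h2bh, with 0 UMIs, were at least 4.97-fold, 3.15-fold and 2.18-fold lower. On unscaled UMIs these were 114-fold, 11.8-fold, 7.48-fold and 5.18-fold, since the TMM factors of PC sums in G1 were 0.425 to 0.570 and those of LZ 1.10 to 1.11. H3f3a was at -1.45, H3f3b at -0.26 and H2afz at -0.25 on the log2 scale. H2afj was higher, at 419, 432 and 338 against 184, 185 and 183 CPM (1.11 ± 0.09, adjusted p = 1.75e-10), as were H1f0 (1.82), and Hist1h4i (1.72) and Hist4h4 (1.69), whose mice overlapped.

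Per cell, H2afj and H1f0 were higher in PC, as they were in CPM. H2afj had 4.04 ± 0.21 UMIs per G1 cell in PC and 4.07 in prePC (2 mice), against 1.12 ± 0.02 in LZ and 1.26 ± 0.11 in preMem. H1f0 had 2.48 ± 0.95 in PC and 0.45 ± 0.02 in LZ. H2afz, lower in CPM, had 5.82 ± 0.80 UMIs per PC cell and 4.10 ± 0.28 per LZ cell. Hist1h4d had 0.18 ± 0.07 UMIs per PC cell and 1.34 ± 0.08 per LZ cell, so that its fall held on both scales. There were 9.67 ± 0.72 variant UMIs per replication-dependent UMI in G1 PC, against 3.35 ± 0.08 in LZ and 2.39 ± 0.15 in preMem. PC in cycle had more replication-dependent RNA: the 1 mouse with enough PC in G2M had 2808 CPM, and the 1 with enough in S had 1159 CPM.

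**Figure D5:**
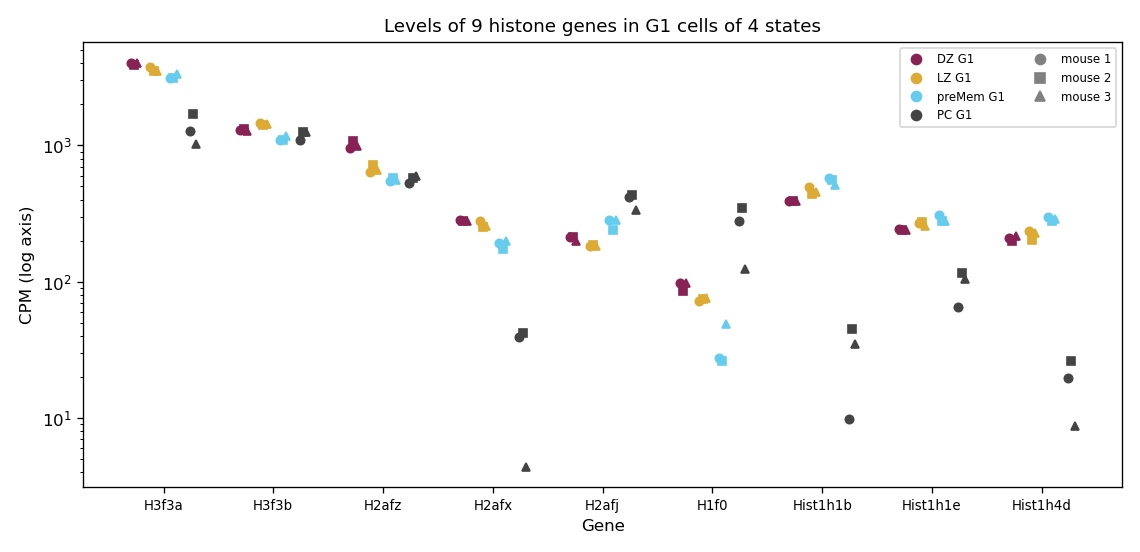
TMM-scaled CPM on a log axis (y axis) of 9 histone genes (x axis) in G1 cells of DZ, LZ, preMem and PC (colour) for each mouse (symbol). Hist1h1b, Hist1h1e and Hist1h4d lie lowest in PC, where Hist1h1b is at 9.83 to 44.8, while H2afj and H1f0 lie highest there.

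The genes that supply histones were examined as well. They form a list of 46 factors for histone mRNA processing, chaperoning and variant deposition, of which 45 were in the matrix. From G1 to S in LZ, 18 of 36 tested genes rose and 2 fell (all genes: 14.5% and 10.1%), with the 8 genes of common phase lists left out. The chaperone genes Chaf1a and Asf1b rose by 2.36 and 2.35 on the log2 scale, and Hat1, which acetylates new H4, by 1.64. From S to G2M in DZ 0 rose (3 at an unadjusted p under 0.05, 2 by the DESeq2 Wald test) and 8 fell (all genes: 9.87% and 11.1%), and in LZ 2 rose and 3 fell (all genes: 4.7% and 4.69%). In LZtoDZ against LZ 20 of 43 rose and 4 fell (all genes: 22.5% and 24.3%), led by Ipo4 (1.78), Npm1 (1.66), Set (1.46) and Ruvbl1 (1.26). In preMem against GC 5 rose and 23 fell (all genes: 25.4% and 21.5%), among them Nasp (-1.93) and Asf1b (-1.84). In prePC against GC 0 rose (1 by the unadjusted p and 1 by the Wald test) and 19 fell (all genes: 10.5% and 7.48%). In PC against GC 5 rose and 28 fell (all genes: 25.9% and 27.2%), among them Nap1l1 (-1.58), Supt16 (-1.35) and Hat1 (-1.34). Between zones, 5 of 43 were higher in DZ and 2 lower (all genes: 8.17% and 11.3%). Within G1 there were 3 higher and 4 lower of 44 (all genes: 6.39% and 5.98%). Within S there were 3 and 0 (all genes: 4.81% and 4.18%), and within G2M 4 and 0 (all genes: 5.02% and 3.53%). At an unadjusted p under 0.05, 0 were lower in S and 6 in G2M. The edgeR test called 0 of 36 for the zone differences in S and in G2M.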

How the data were processed

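Per the labels' protocols, poly(A) RNA of pooled, hashtagged cells was sequenced by the 10x 5′ workflow. The authors deposited UMI counts per gene and cell together with each cell's state, phase and mouse. Cell Ranger, Seurat and the builds GRCm38 and mm10 are named per the submitters' processing notes, without versions. No column was left unmapped (0). Counts were summed per mouse and state, and per mouse, state and phase, where at least 10 cells were present. edgeR 4.0.16 (R 4.3.3) was used with TMM scaling, its filter on low counts, a quasi-likelihood test and Benjamini-Hochberg adjustment over all genes, at a threshold of 0.05. Mice are the replicates, 3 in all. The p-values rest on the spread left among the sums once group and mouse are fitted. Differences between mice that all groups share are thus taken out. The remaining spread is estimated over all groups together, not within each comparison. Sums and UMIs per cell are unscaled, while CPM of single genes are TMM-scaled. SD is over mice.

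The same animals gave all states, so the mouse was a block in the fit. Deviations of same-mouse sums had a median correlation of 0.0912 for states (45 pairs) and 0.197 for states and phases (108 pairs), against -0.0512 and -0.108 for different mice. The fits were also run on simulated counts with planted changes, the same spread in all genes and no mouse effect. Real sums differ from this, so the run does not show how the fits perform on them. Python 3.11.15 with numpy 2.4.6, scipy 1.17.1 and pandas 2.3.3 was used for tables. DESeq2 1.42.0 was run as an alternative, beside other scalings, filters, cell minimums, phases rebuilt by scanpy 1.11.5, and leaving out immunoglobulin genes, the second barcode series or a mouse.

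Named are the variants with at least 100 UMIs, the 12 replication-dependent genes with the most UMIs, and per comparison the 3 histone genes (4 supply genes) with the largest change past the threshold in each direction; values per mouse were added for a few others. Members and lists were chosen with earlier results of these data known. Where called genes are said not to overlap between groups, the same values gave the call, so this adds no support. The share of all genes without overlap was not computed. BCR and hashtag libraries were not used here.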

Additional observations from a re-analysis of the deposited data

Results flagged for a closer look

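H2afz was singled out because its response to the cell cycle differed between the zones by a test of the difference itself. Its rise from G1 to G2M was smaller in DZ than in LZ by a log2 difference of -0.57 ± 0.08 (adjusted p = 0.00226 by edgeR's quasi-likelihood test). The change was 1.86 ± 0.06 in DZ and 2.43 ± 0.06 in LZ. G1 levels were 954, 1075 and 995 CPM in DZ and 643, 714 and 665 in LZ, whereas G2M levels overlapped, at 3725, 3566 and 3685 and at 3572, 3643 and 3647. The difference kept its sign under each of the alternatives run, between -0.59 and -0.47, with an adjusted p of 0.139 without mouse 2 and 0.291 without mouse 3. Its cause was not tested.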

How the results depend on the processing

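Of 203 counts of called histone genes under alternatives, 165 were within 1.5 times the value reported. Without immunoglobulin genes the counts became 8 for DZ against LZ (from 4), 9 in G1 (from 5), 8 in S (from 5) and 10 in G2M (from 2), 11 for preMem against LZ in G1 (from 5), and 1 and 2 for the zone differences in S and G2M (from 0 and 1). With the DESeq2 Wald test they were 8 for DZ against LZ in G1, 4 in G2M, 8 for preMem against LZ in G1, and 2 and 3 for the zone differences. With DESeq2 size factors DZ against LZ gave 3 in S and 1 in G2M. Without a low-count filter, with rebuilt phases, or with no replicate block, DZ against LZ in G1 gave 3; dropping the block changed no other count by over 1.5 times. Without the second barcode series the counts were 8 for DZ against LZ, 4 in G2M, 12 for prePC against GC (from 7) and 9 for PC against GC (from 25), with H1f0 (-0.77, 6 UMIs) and Hist4h4 (-7.96, a fitted value at 0 UMIs) reversed in the 1 sum of 11 PC left; PC against LZ in G1 could not be run. The share of all genes called under each alternative is not given beside these counts. Whether the shifts are particular to histone genes was not tested, and neither was their cause.

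Leaving out each mouse in turn gave 18 to 24 for S against G1 in DZ and 13 to 21 in LZ, 31 to 36 and 27 to 33 for G2M against G1, and 17 to 20 and 10 to 16 for G2M against S. DZ against LZ gave 4 to 5, with 3 to 6 in G1, 0 to 3 in S and 1 to 2 in G2M, and the zone differences 0 to 0 in S and 0 to 1 in G2M. LZtoDZ against LZ gave 15 to 17 and 8 to 15 in S, preMem 12 to 15 against GC and 3 to 5 against LZ in G1, prePC 5 to 8, and PC 20 to 23 against GC and 26 to 30 against LZ in G1. Depth limits the low copies: 23 histone genes had fewer than 100 UMIs in 6000 cells.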
